A study of Mus musculus with 99 samples.

Results

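The CBX7 ChIP-seq peak lists of mouse embryonic stem cells (ESCs) are described here. They were the 4 samples whose antibody label names CBX7, out of 99 samples in the series, with 1 library per condition. The 3 lines of the CBX7 libraries carry ROSA26::creERT2 RING1A-/-;RING1B fl/fl, so that each of these conditions lacked RING1A, and 4-hydroxytamoxifen (OHT, 0.5 µM for 72 h) drives Cre to delete the remaining RING1B. The conditions were Parental −OHT (ethanol vehicle, RING1B present), Parental +OHT (RING1A and RING1B both deleted), RING1B WT +OHT and RING1B I53S +OHT. The latter lines are ESC clones in which the endogenous gene was deleted in the same way while a FLAG-HA-tagged RING1B, either wild-type or carrying the I53S missense change that removes its catalytic activity, was stably expressed from an integrated vector. Cells grew in serum medium with 2i and LIF on gelatin. Each line was 1 clone or line, and no CBX7 library of the rescue lines without OHT was analysed here. RNA-seq, used as a second readout, had 2 libraries for each of the 3 lines without and with OHT, and for Eed fl/fl ESCs without and with OHT. The Eed fl/fl cells are a separate ROSA26::creERT2 line in which OHT deletes the PRC2 subunit EED, and the methods list more than 1 clone of it without saying which clone gave which library.

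CBX7 is a chromodomain protein of canonical Polycomb repressive complex 1 (PRC1). Its chromodomain binds trimethylated lysine 27 of histone H3 (H3K27me3), the mark written by PRC2, and it assembles with PCGF2 or BMI1, a PHC protein and RING1A or RING1B, the E3 ligase that places mono-ubiquitin on histone H2A (H2AK119ub1). Variant PRC1 forms hold RYBP or YAF2 in place of a CBX protein. In ESCs, CBX7 is the most abundant CBX subunit of canonical PRC1, and CpG-rich promoters of silent developmental regulators are its best-known targets. The comparison addressed whether canonical PRC1 stays on chromatin without RING1B, and whether catalytically dead RING1B can hold it there.

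Sequences of 300 bases from the middle of 6 peaks on which the results turn are shown first. Fezf1, which encodes a forebrain zinc-finger repressor, lay under the highest-scoring Parental −OHT peak (chr6:23249919-23250218). Neurod2 (chr11:98327913-98328212), a neuronal bHLH factor, and Hoxb2 (chr11:96353133-96353432), a homeobox factor of hindbrain patterning, are developmental loci where a small peak was still called in both Parental +OHT and RING1B I53S +OHT. Plau (chr14:20836368-20836667), the urokinase plasminogen activator, and 2 sites with no peak in Parental −OHT (chr16:91073364-91073663 and chr2:121833994-121834293) are places where the Parental +OHT peak scored above 20 and held a long run of alternating guanine and adenine. All are the + strand of GRCm38 (mm10), and capitals mark CG dinucleotides.
Fezf1: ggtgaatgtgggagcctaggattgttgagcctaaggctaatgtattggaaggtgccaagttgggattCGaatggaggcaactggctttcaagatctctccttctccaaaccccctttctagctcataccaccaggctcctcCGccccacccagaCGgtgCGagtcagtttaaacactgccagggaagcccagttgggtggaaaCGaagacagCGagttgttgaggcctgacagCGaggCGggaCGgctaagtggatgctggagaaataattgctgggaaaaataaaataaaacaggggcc
Neurod2: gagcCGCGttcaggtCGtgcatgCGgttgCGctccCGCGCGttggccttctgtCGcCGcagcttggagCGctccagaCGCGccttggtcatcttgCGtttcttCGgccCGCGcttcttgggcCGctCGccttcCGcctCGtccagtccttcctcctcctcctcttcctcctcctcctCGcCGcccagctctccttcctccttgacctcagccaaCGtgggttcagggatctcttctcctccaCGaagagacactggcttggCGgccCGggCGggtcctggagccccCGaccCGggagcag
Hoxb2: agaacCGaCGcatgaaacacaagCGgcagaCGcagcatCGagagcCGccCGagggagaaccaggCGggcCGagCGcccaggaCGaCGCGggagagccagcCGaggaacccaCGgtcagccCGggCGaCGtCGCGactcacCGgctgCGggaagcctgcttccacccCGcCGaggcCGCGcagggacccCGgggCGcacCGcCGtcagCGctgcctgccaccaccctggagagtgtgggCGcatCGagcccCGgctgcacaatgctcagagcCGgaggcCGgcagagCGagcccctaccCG
Plau: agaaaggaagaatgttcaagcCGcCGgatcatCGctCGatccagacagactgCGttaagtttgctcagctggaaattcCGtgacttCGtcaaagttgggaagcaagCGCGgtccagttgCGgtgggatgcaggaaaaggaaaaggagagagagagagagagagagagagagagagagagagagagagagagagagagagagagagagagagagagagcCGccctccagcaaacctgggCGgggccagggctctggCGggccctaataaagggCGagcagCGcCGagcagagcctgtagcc
Site on chromosome 16: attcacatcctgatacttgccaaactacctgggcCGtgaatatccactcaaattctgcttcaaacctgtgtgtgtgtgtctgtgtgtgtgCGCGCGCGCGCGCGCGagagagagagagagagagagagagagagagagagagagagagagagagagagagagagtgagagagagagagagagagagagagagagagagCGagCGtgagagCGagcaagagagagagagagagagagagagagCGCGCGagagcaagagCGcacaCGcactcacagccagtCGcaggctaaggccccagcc
Site on chromosome 2: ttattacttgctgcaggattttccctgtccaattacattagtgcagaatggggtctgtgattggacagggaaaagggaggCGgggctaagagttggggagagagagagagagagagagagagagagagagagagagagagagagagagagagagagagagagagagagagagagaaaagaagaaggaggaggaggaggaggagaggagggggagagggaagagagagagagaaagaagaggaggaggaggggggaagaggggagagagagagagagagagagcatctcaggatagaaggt
The Fezf1 window is the middle of a Parental −OHT peak of 12444 bp. The Hoxb2 window came from a RING1B I53S +OHT peak of 1116 bp. The other 4 came from Parental +OHT peaks, that of Neurod2 being 2159 bp long. The Neurod2 and Hoxb2 windows held 30 and 38 CG dinucleotides and the Fezf1 window 9. Middles of the 125 Parental −OHT peaks of at least 10 kb held a median of 8. The Plau window held 16, the chromosome 16 site 18, and the chromosome 2 site 1. The longest uninterrupted GA runs in these peaks were 73 bases at Plau, 59 bases on chromosome 16 and 78 bases on chromosome 2.

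CBX7 was called at 5140 sites in cells with RING1B, nearly all of which had no peak when RING1B was deleted or replaced by the catalytically dead form, while 45.9% had a peak with wild-type RING1B. Parental +OHT cells had 59 peaks, RING1B I53S +OHT cells had 32 and RING1B WT +OHT cells had 2648, that is 1.15%, 0.623% and 51.5% of the Parental −OHT number. The peaks covered 12.7 Mb in Parental −OHT and 5.61 Mb in RING1B WT +OHT, against 55.4 kb in Parental +OHT and 35.2 kb in RING1B I53S +OHT. The score of a peak is the −log10 p of the peak caller, and all deposited peaks score at least 10. The lists hold no reads, so the depth of each library is unknown, and both the number of peaks and the scores move with depth. With 1 library per condition no test was possible, and intervals below are 95% Wilson intervals that cover counting over peaks only.

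The peaks left in Parental +OHT and RING1B I53S +OHT were shorter and far weaker. The median length was 1816.5 bp in Parental −OHT, 1549.5 bp in RING1B WT +OHT, 737 bp in Parental +OHT and 853 bp in RING1B I53S +OHT. The median score was 56.5 in Parental −OHT, 29.8 in RING1B WT +OHT, 12.8 in Parental +OHT and 12.7 in RING1B I53S +OHT. The highest score was 1737 in Parental −OHT and 492 in RING1B WT +OHT, but 48.2 and 52.2 in Parental +OHT and RING1B I53S +OHT. In Parental −OHT 1868 peaks scored above 100, and none did in Parental +OHT or RING1B I53S +OHT. Broad domains of at least 10 kb numbered 125 in Parental −OHT and 33 in RING1B WT +OHT, and 0 in both other conditions.

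**Figure D1:**
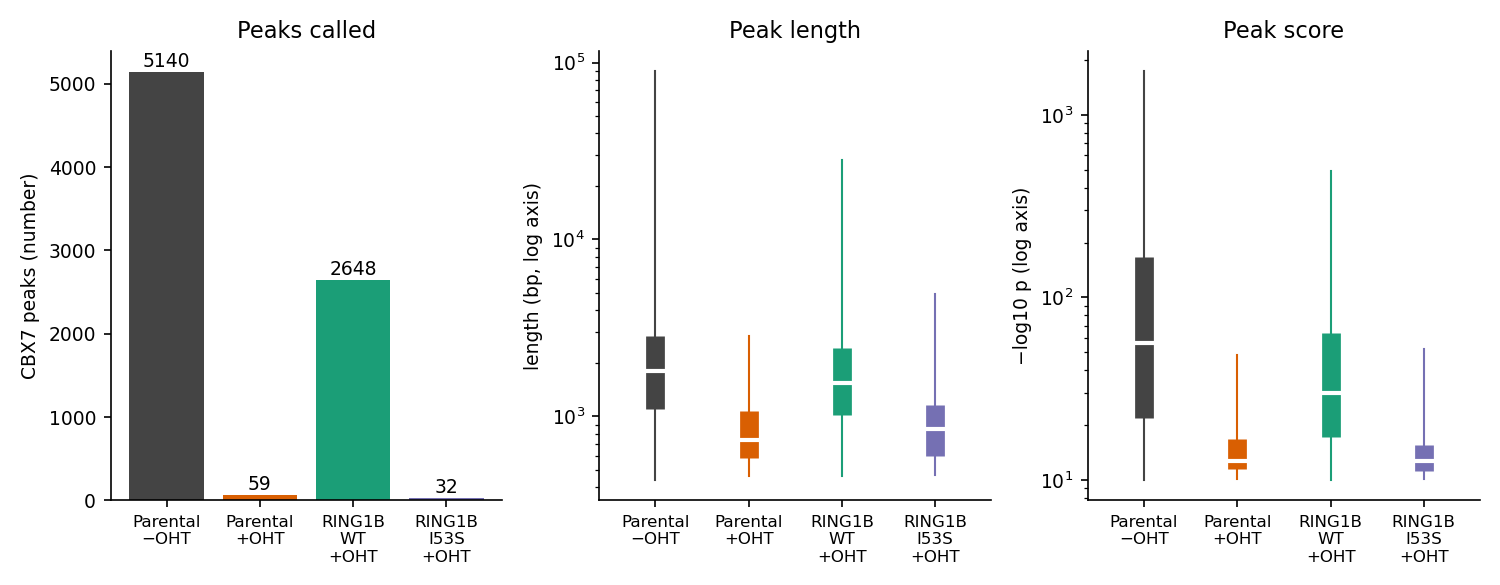
Number of CBX7 peaks (left), peak length in bp on a log axis (middle) and peak score, −log10 p on a log axis (right), in the 4 libraries. Boxes span the quartiles with the median in white, and lines run from the lowest to the highest peak. Parental +OHT and RING1B I53S +OHT have 59 and 32 peaks, with medians of 12.8 and 12.7 in score.

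Most CBX7 sites were promoters. A peak lay within 2.5 kb of an annotated start site for 83.0% (81.9 to 84.0) of Parental −OHT peaks, 85.6% of RING1B WT +OHT peaks, 74.6% of Parental +OHT peaks and 68.75% of RING1B I53S +OHT peaks. Of the other Parental −OHT peaks 332 touched an exon, 151 lay in introns and 391 between genes. The promoter peaks marked 5147 genes in Parental −OHT, 3786 of them protein-coding. In RING1B WT +OHT 2720 genes had a promoter peak, of which 2707 also had one in Parental −OHT. Parental +OHT retained 65 genes and RING1B I53S +OHT 30, of which 54 and 22 were also marked in Parental −OHT.

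The CBX7 sites were rich in GC and CpG. The median Parental −OHT peak had 57.0% GC and an observed over expected CpG ratio of 0.572. RefSeq promoters (GRCm38, from 250 bases before to 50 bases after the start) were found for 3120 of the 5147 CBX7 genes. Their 4192 promoters held a median of 17 CG dinucleotides, against 7 in all 32851 RefSeq promoters, and 63.3% held CGCG, against 38.0% of all. The E-box CACGTG, which reads the same on both strands, was in 7.59% of CBX7 promoters and in 7.15% of all promoters. Peaks of at least 10 kb had a median of 52.3% GC and a CpG ratio of 0.509.

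Most of the highest-scoring CBX7 peaks of Parental −OHT lay at developmental transcription factors. Fezf1 scored 1737 in a peak of 12444 bp, Neurod2 1670, the Hoxb domain 1565, Otx1 1510 and Sox9 1485. They were followed by Plxnd1, a semaphorin receptor, at 1459, the forebrain homeobox gene Emx1 at 1337 and Tmem132e at 1318. Nr2e1, an orphan receptor of neural stem cells, scored 1275 and Nr5a1, the steroidogenic factor, 1186. With RING1B WT the same 10 loci all had a peak, with scores from 282 at Nr5a1 to 492 in the Hoxb domain. In Parental +OHT 4 of these 10 loci (Fezf1, Plxnd1, Emx1 and Nr2e1) had no peak and the other 6 had peaks that scored at most 17.5. In RING1B I53S +OHT 5 had none (Fezf1, Plxnd1, Emx1, Tmem132e and Nr5a1) and the other 5 scored at most 19.5.

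The longest CBX7 domain was the Hoxb cluster, a single Parental −OHT peak of 89314 bp (chr11:96268252-96357565) over 8 Hoxb genes. The Hoxd and Hoxa clusters had peaks of 46994 bp and 45599 bp, followed by Cbx8 (26826 bp), itself a chromodomain subunit of canonical PRC1, and Pax2 (23673 bp), a paired-box factor of kidney and hindbrain. Parental −OHT peaks covered 82.7% of the Hoxa cluster, 62.9% of Hoxb, 61.4% of Hoxc and 78.1% of Hoxd. With RING1B WT these shares were 59.1%, 52.4%, 39.2% and 53.8%, and the domains were split into more and shorter pieces. The single Hoxb peak was covered by 10 RING1B WT +OHT peaks with 74999 bp in all, the longest of 27978 bp. In Parental +OHT and RING1B I53S +OHT the Hoxa, Hoxc and Hoxd clusters had no peak. The Hoxb cluster had 2 small peaks in each of these conditions, at Hoxb6 and Hoxb2, with 1628 bp and 1844 bp in all.

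The CBX7 sites kept by RING1B WT were the strong and broad ones. RING1B WT +OHT peaks overlapped 2357 of the 5140 Parental −OHT peaks by at least 1 bp, or 45.9% (44.5 to 47.2). The kept peaks had a median length of 2906 bp and a median score of 185, against 1159 bp and 23.9 for the 2783 that were not called. When Parental −OHT peaks were ranked by score into 5 classes of 1028 peaks, 99.9% of the highest class were kept, 89.5% of the second, 33.4% of the third, 5.35% of the fourth and 1.17% of the lowest. The fourth class scored 18.2 to 38.1 and the lowest 10.0 to 18.2, and deposited peaks score at least 10. At kept sites the RING1B WT +OHT score was a median of 0.179 of the Parental −OHT score. Weak sites thus had little room above the cutoff, and its part in these shares was not tested. All 125 domains of at least 10 kb were kept. Promoter peaks were kept in 48.7% of cases, intergenic peaks in 35.0%, exonic peaks in 31.0% and intronic peaks in 25.2%, and their median scores in the same order were 67.3, 31.3, 33.9 and 20.5.

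At the kept sites the RING1B WT +OHT peak was the weaker one. Its score was lower at 2346 of 2357 sites, with a median ratio of 0.179 to the Parental −OHT score, and it covered a median of 59.0% of the Parental −OHT peak. Across the kept sites the scores kept their order (Spearman's rho 0.896 over 2357 peaks, a description across sites that share both libraries). Conversely, 2637 of the 2648 RING1B WT +OHT peaks lay on a Parental −OHT peak, and 11 did not. When the 2648 highest-scoring Parental −OHT peaks were compared with the 2648 RING1B WT +OHT peaks, 83.5% overlapped. A lower depth or a lower enrichment of the RING1B WT +OHT library cannot be told apart from a lower CBX7 level, since the lists hold no reads.

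**Figure D2:**
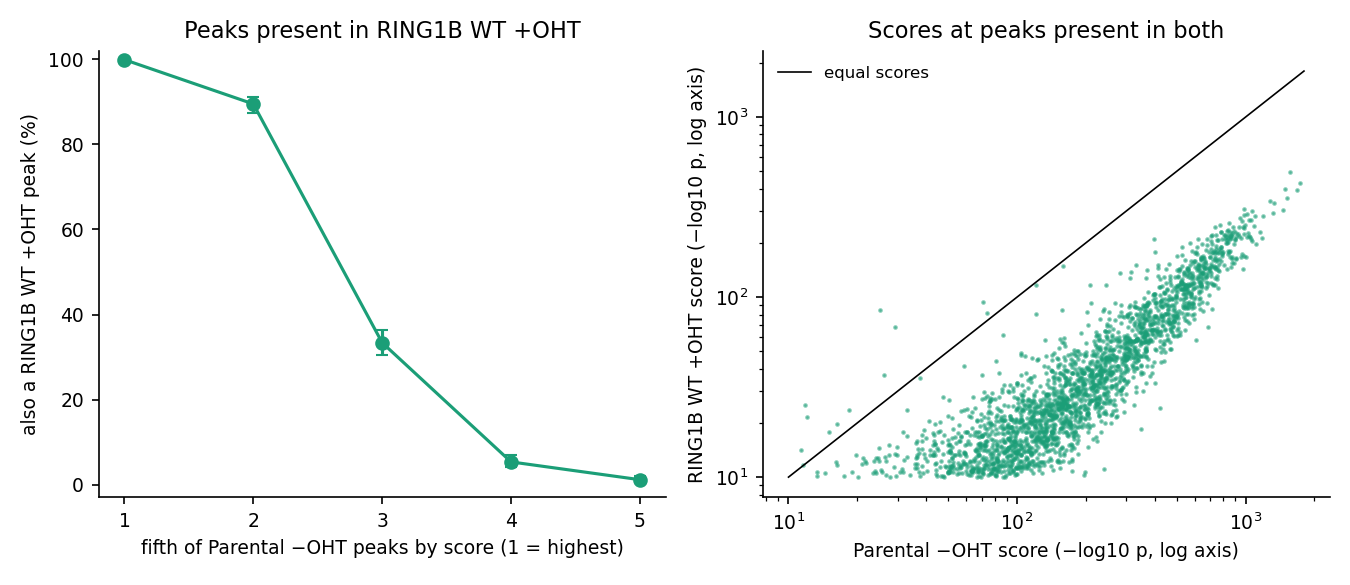
Left, share of Parental −OHT CBX7 peaks that a RING1B WT +OHT peak overlaps (%), by Parental −OHT score in 5 classes of 1028 peaks (1 is the highest), with 95% Wilson intervals. Right, scores of the 2357 peaks present in both libraries (−log10 p, log axes), where all but 11 points lie below the line of equal scores. The share drops from 99.9% in the highest class to 1.17% in the lowest.

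CBX7 sites without a PCGF2 or RING1B peak in Parental −OHT were seldom called in RING1B WT +OHT. PCGF2 and RING1B peaks both overlapped 3965 of the 5140 Parental −OHT CBX7 peaks, and 58.7% of these were kept. Of the 525 with PCGF2 alone 4.38% were kept, of the 87 with RING1B alone 0, and of the 563 with neither 0.888%. The median scores of these 4 classes were 92.4, 18.96, 14.4 and 13.7, so that the classes also differed in score.

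In cells with RING1B, CBX7 peaks coincided with PRC2 and canonical PRC1. H3K27me3 peaks overlapped 92.7% of the Parental −OHT CBX7 peaks, SUZ12 (a PRC2 core subunit) 98.1%, and MTF2 and JARID2 (accessory subunits of PRC2.1 and PRC2.2) 99.9% each. PCGF2 overlapped 87.4%, RING1B 78.8% and H2AK119ub1 71.0%. The variant PRC1 subunits were called at fewer of them, with PCGF6 at 51.0% and RYBP at 30.3%. These shares also depend on the length of each list, which ran from 1331 peaks for AEBP2 (19.7%) to 24485 for MTF2.

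CBX7 was seldom called at sites where H3K27me3 and PRC2 peaks were called with OHT. In Parental +OHT 3317 of the 5140 sites (64.5%) had an H3K27me3 peak, and CBX7 was called at 35 of these. In RING1B I53S +OHT 2096 sites (40.8%) had an H3K27me3 peak, and CBX7 was called at 12. With RING1B WT it was called at 2313 of 4471 (51.7%). SUZ12 gave the same contrast, with CBX7 at 37 of 3656 sites in Parental +OHT and at 14 of 2343 in RING1B I53S +OHT. H2AK119ub1, the mark that RING1A and RING1B place, was itself still called at 2589 of the sites (50.4%) in Parental +OHT, with CBX7 at 36 of these, and at 1638 (31.9%) in RING1B I53S +OHT, with CBX7 at 14. A called peak does not give the level of a mark, and how much of each mark was retained cannot be read from these lists. The canonical PRC1 partner PCGF2 was called at 10 of the 5140 sites in Parental +OHT, 470 in RING1B I53S +OHT and 3363 in RING1B WT +OHT. Of the 470 PCGF2-bound sites in RING1B I53S +OHT, CBX7 was called at 14 (2.98%), and of the 202 with RING1B I53S at 13 (6.44%). With RING1B WT it was called at 2315 of 3363 (68.8%) and 2240 of 3059 (73.2%). PCGF6 was called at 1119 of the sites in Parental +OHT, 760 in RING1B I53S +OHT and 3338 in RING1B WT +OHT. Second libraries in RING1B I53S +OHT gave other shares, with MTF2 at 72.8% of the sites against 41.5% in the first, and JARID2 at 6.67% against 17.2%. Each library has its own depth, and no difference between antibodies was tested.

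**Figure D3:**
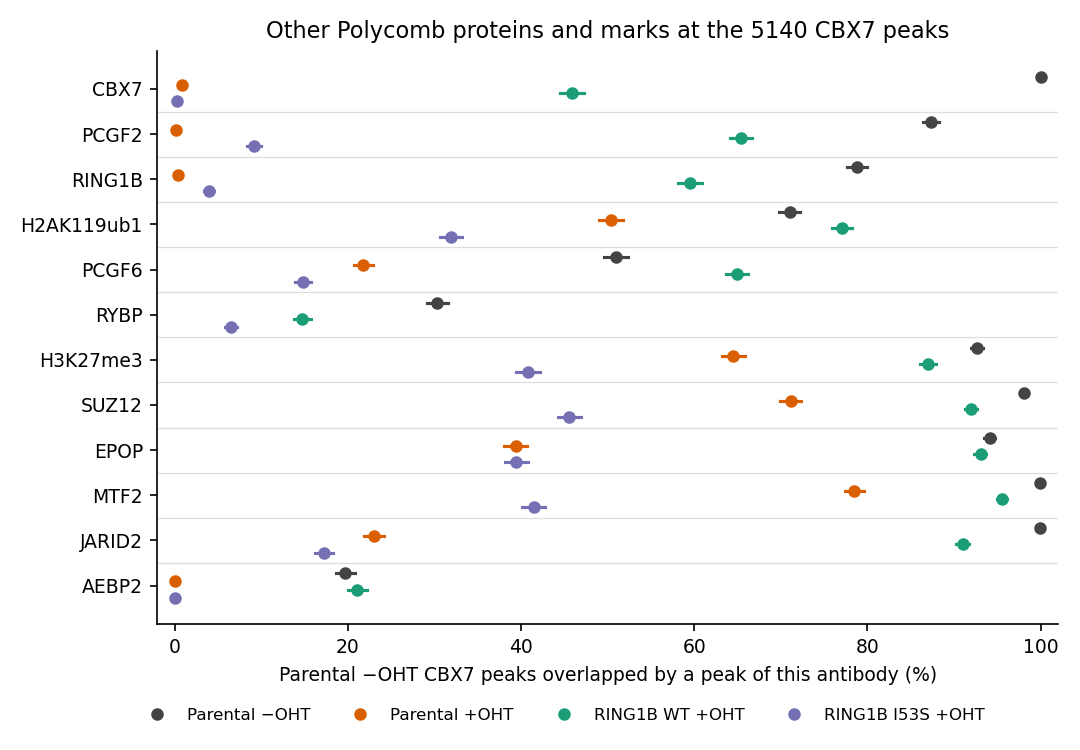
Share of the 5140 Parental −OHT CBX7 peaks that a peak of each antibody overlaps (%, x axis) in the 4 conditions, with 95% Wilson intervals; where an antibody has 2 libraries, the first is drawn, and no RYBP library was used for Parental +OHT. CBX7 and PCGF2 lie at 0.798% and 0.195% in Parental +OHT, where H3K27me3 lies at 64.5%.

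The few CBX7 peaks left in Parental +OHT and RING1B I53S +OHT were sorted into 3 kinds. The first lay on peaks of the input libraries, chromatin sequenced without an antibody, of which 4 had deposited peak lists (9 to 19 peaks each, from MTF2 knockout cells). There were 10 such peaks among the 59 of Parental +OHT and 7 among the 32 of RING1B I53S +OHT, against 2 of 5140 in Parental −OHT. The highest scores of both lists were of this kind. They were 48.2 and 52.2 at the predicted gene Gm10717, near the start of chromosome 9, and Gm10720 beside it scored 21.9 and 26.3. Coil, which encodes the Cajal body protein coilin, also lies on an input peak, and its score was 12.1 in Parental −OHT, 16.3 in Parental +OHT, 21.7 in RING1B WT +OHT and 20.5 in RING1B I53S +OHT.

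The second kind held a GA run, defined as at least 20 bases of alternating G and A, or C and T on the other strand. Such runs were in 12 of the 59 Parental +OHT peaks and 6 of the 32 RING1B I53S +OHT peaks, 11 and 5 of which had no input peak. Because long peaks hold more sequence, the middle 300 bases were compared. A run was there in 9 of 59 peaks (15.3%) of Parental +OHT and 5 of 32 (15.6%) of RING1B I53S +OHT, but in 1.09% of Parental −OHT and 0.906% of RING1B WT +OHT CBX7 peaks. The share in peaks of the other antibodies in the same 2 conditions was between 0 and 1.41%, and it was 0.0731% in RefSeq promoters. At 6 of these sites in Parental +OHT and 4 in RING1B I53S +OHT none of 47 peak lists of other antibodies in cells with intact MTF2 had a peak. Others in Parental +OHT lay on strong Parental −OHT peaks. Those on chromosomes 1, 17 and 6 scored 506, 780 and 903 there, with a peak in 37, 30 and 34 of the 47 lists. The chromosome 16 and chromosome 2 sites shown above were 2 of the sites without a peak of another antibody and were called in both conditions. They scored 31.5 and 26.1 in Parental +OHT and 21.5 and 16.7 in RING1B I53S +OHT, with no peak in Parental −OHT. At Plau the score was 51.7 in Parental −OHT, 31.2 in Parental +OHT, 14.7 in RING1B WT +OHT and 12.9 in RING1B I53S +OHT. Wipf2 (chr11:98863527-98863826), with a run of 67 bases, scored 30.7 in Parental −OHT and 23.1 in Parental +OHT.

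The third kind, with neither an input peak nor a GA run, comprised 38 Parental +OHT peaks and 20 RING1B I53S +OHT peaks. Of these 35 and 15 lay on Parental −OHT peaks, which were among the strongest, with a median score of 964 and 983. The score with OHT was a median of 1.199% of the Parental −OHT score in Parental +OHT and 1.21% in RING1B I53S +OHT, and no peak of this kind exceeded 17.5 or 19.5. Neurod2 scored 14.7 in Parental +OHT and 15.7 in RING1B I53S +OHT, from 1670. Sox9 scored 12.8 and 12.2, and Hoxb2 10.3 and 19.5. Others in Parental +OHT were at Dlx3, Hs3st3b1, Nkx6-1, En2, Six2 and the haematopoietic factor Tal1, with scores between 10.3 and 17.2. Those in RING1B I53S +OHT included the homeobox genes Hmx2, Hmx3, Lhx8 and Barhl2, with scores between 10.1 and 12.2. All 10 Parental +OHT peaks that scored at least 20 were of the first (3) or second (7) kind, as were all 4 of RING1B I53S +OHT (3 and 1). All 3 peaks of Parental +OHT and 4 of the 5 of RING1B I53S +OHT that were of the third kind but off Parental −OHT peaks lay in 1 stretch, chr1:88213880-88310314, near Ugt1a1, Hjurp and Trpm8.

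**Figure D4:**
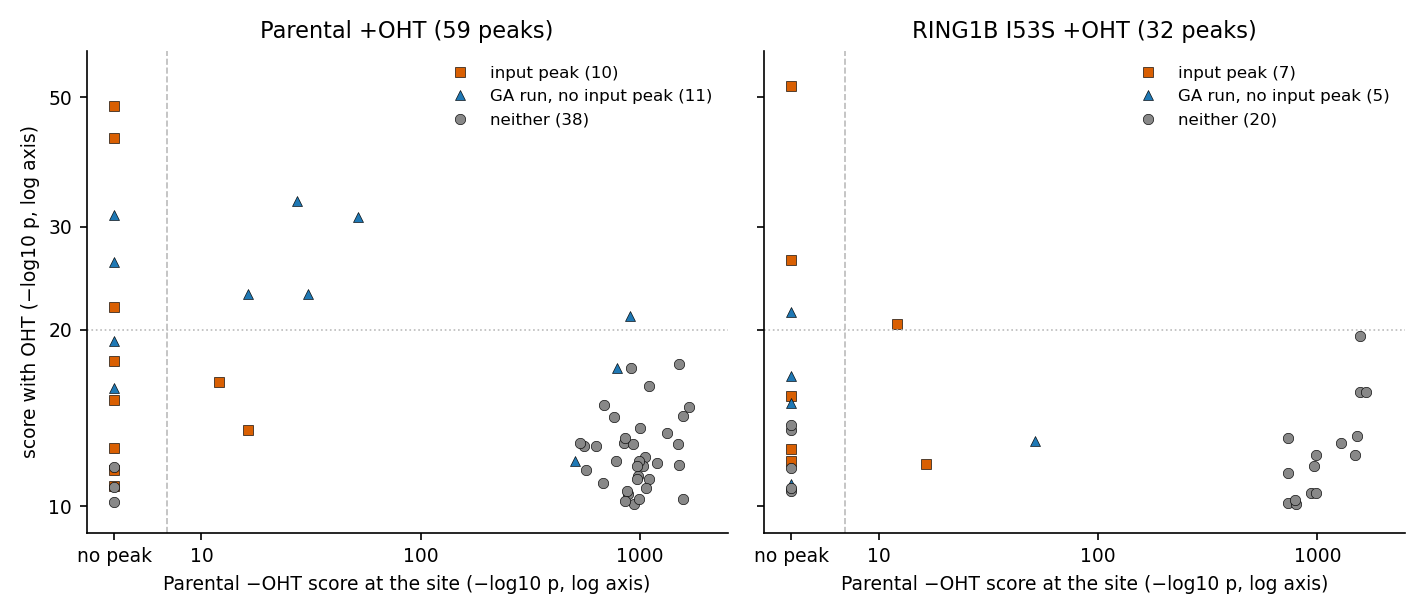
Each CBX7 peak called in Parental +OHT (left) and RING1B I53S +OHT (right), by its score (y axis, −log10 p, log axis) and the Parental −OHT score at the same site (x axis, log axis; "no peak" at the left edge). Squares are peaks on an input peak, triangles peaks with a GA run and no input peak, circles neither. No circle lies above 20, and most circles sit where Parental −OHT scored above 500.

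The lists of the RING1B-deleted conditions shared sites. In Parental +OHT 17 of 59 peaks (28.8%) overlapped a RING1B I53S +OHT peak. In RING1B I53S +OHT 16 of 32 (50.0%) overlapped a Parental +OHT peak. Only 9 of these shared peaks in each list had no input peak. Among those 9 were the GA-run sites at Plau, on chromosome 16 and on chromosome 2. Chromosome 11 held 18 of the 59 and 7 of the 32 (30.5% and 21.9%), against 9.90% in Parental −OHT and 9.52% in RING1B WT +OHT. In the RING1B lists chromosome 11 held 82.6% of the Parental +OHT and 66.8% of the RING1B I53S +OHT peaks. The RING1B share in Parental −OHT was 12.5%. In the lists of the other antibodies the share ran from 7.14% (AEBP2, 14 peaks) to 25.8% (PCGF2) in Parental +OHT. It ran from 15.2% (MTF2) to 39.0% (RYBP) in RING1B I53S +OHT, and from 9.58% (PCGF2) to 24.4% (RYBP) in Parental −OHT. In the RNA libraries of these lines the 603 chromosome 11 genes measured stood 0.357 to 0.437 (log2) above the other autosomes relative to the Eed fl/fl −OHT libraries, in 12 of 12 libraries, and its part in the CBX7 lists was not tested. Without chromosome 11 the share of Parental −OHT peaks overlapped in Parental +OHT was 0.540% in place of 0.798%.

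Nearly all members of the lists of developmental regulators had a CBX7 promoter peak in Parental −OHT, where the share over all protein-coding genes was 17.3% (3786 of 21911). In RING1B WT +OHT this share was 9.06%, and it was 0.21% and 0.105% in Parental +OHT and RING1B I53S +OHT. Promoter peaks were present in Parental −OHT at all 39 Hox genes, with a median score of 760, and RING1B WT +OHT kept 38 of them, with Hoxc13 as the exception. Parental +OHT and RING1B I53S +OHT kept 2 each (Hoxb2 and Hoxb6). All 39 neural and ectodermal transcription factors listed had a peak, 38 in RING1B WT +OHT, 5 in Parental +OHT and 2 in RING1B I53S +OHT. Emx1 scored 1337 in Parental −OHT and 334 in RING1B WT +OHT, and the LIM homeobox gene Lhx1 1016 and 216. Of 38 mesodermal and endodermal transcription factors 34 had a peak, 33 in RING1B WT +OHT and 0 in both other conditions. The mesenchymal factor Foxf1 scored 904 in Parental −OHT and 217 in RING1B WT +OHT, and the limb factor Pitx1 874 and 228. Of 37 ligands of the Wnt, BMP, FGF and Hedgehog families 33 had a peak, 31 in RING1B WT +OHT, and in Parental +OHT 2 (Wnt3a, 10.503, and Fgf8, 12.8) against 0 in RING1B I53S +OHT.

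Against the same 17.3% of protein-coding genes, 0 of 20 housekeeping genes had a Parental −OHT peak, 2 of 22 germline genes and 4 of 16 pluripotency factors. The pluripotency factors with a peak were the orphan receptor Esrrb (375), Prdm14 (50.4), Dppa3 (49.8) and Tbx3 (15.2). RING1B WT +OHT kept 3 of them, without Tbx3. Of 7 cell cycle inhibitors 4 had a peak, among them Cdkn2c (524) and Cdkn1c (324), which RING1B WT +OHT kept at 111 and 89.1. Cdkn2a (27.9) and Cdkn1b (15.3) had none in RING1B WT +OHT.

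Several genes for PRC1 subunits were CBX7 targets, but Cbx7 was not. Of 12 canonical PRC1 genes 5 had a promoter peak. Among them Cbx8 scored 861, Bmi1 304, Cbx2 120 and Phc2 10.2, and of these only Phc2 had no peak in RING1B WT +OHT. Cbx7, Cbx6, Rnf2 (RING1B), Ring1 and Pcgf2 had none in any of the 4 libraries. Of 15 variant PRC1 genes 7 had a peak, led by Pcgf5 (220), Bcorl1 (193) and Bcor (154), and 4 of these had one in RING1B WT +OHT. Of 13 PRC2 genes 2 did, Phf19 (230) and Aebp2 (10.7, near the lowest deposited score of 10). Over all protein-coding genes 17.3% had a Parental −OHT promoter peak, so the PRC2 count does not stand out. The sensory neuron regulator Prdm12 scored 660 in Parental −OHT and 148 in RING1B WT +OHT and had no peak in either other condition.

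RNA-seq of the same lines, a readout the CBX7 lists did not use, was available in 2 replicates per group. The deposited counts were fitted with edgeR over all 18154 genes that passed the filter on low counts, and genes counted as higher or lower passed both a log2 fold change of 1.5 in size and a Benjamini-Hochberg adjusted p of 0.05. Library totals ran from 8140106 to 12743460 counts. In bulk samples fewer cells of a type and less RNA per cell cannot be told apart, and nothing says that replicates are separate cultures, so the tests measure the spread between these libraries. The targeted gene Rnf2 was at 198 and 257 CPM (counts scaled to a common library total) in Parental −OHT and at 144 and 166 in Parental +OHT. The RING1B WT line had 256 and 290 CPM without and 259 and 232 with OHT, and the RING1B I53S line 257 and 281 without and 166 and 238 with it. Counts per gene name neither resolve the floxed exons nor separate the tagged transgene, so that they check nothing about the deletion. Ring1, the RING1A gene, was at 1.03 to 4.01 CPM in the 3 lines and 4.53 to 8.11 in Eed fl/fl cells.

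Genes with a CBX7 promoter peak rose when RING1B was deleted. Of the 5147 genes with a Parental −OHT promoter peak 3442 were tested. In Parental cells with OHT 1763 rose and 26 fell, against a background of 15.1% of all tested genes higher and 1.83% lower. The members called higher were 51.2% of those tested. The median log2 fold change of tested members was 1.71, against 0.03 over all genes tested. The filter does not ask for counts in every group, so genes low without OHT could enter through libraries with OHT. Without the filter 4774 members were tested and 1886 rose, against 3013 of all 37779 genes. In RING1B I53S cells with OHT 1601 rose and 16 fell (backgrounds 12.8% and 1.04%), with a median of 1.53. In RING1B WT cells 159 rose and 2 fell (backgrounds 1.34% and 0.0386%), with a median of 0.59. The RING1B WT count rested on single libraries, with 11 higher without RING1B WT −OHT replicate 2 and 22 higher without RING1B WT +OHT replicate 2.

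The difference between the rescue lines was tested directly with OHT. In RING1B I53S against RING1B WT 880 of the 3442 genes were higher and 9 lower (backgrounds 6.02% and 0.6%), with a median of 1.09. Without RING1B WT +OHT replicate 1 the count of higher genes was 252, and without replicate 2 it was 585. In Parental against RING1B WT 970 were higher and 14 lower (backgrounds 7.62% and 1.06%), also with a median of 1.09. This count was 404 without RING1B WT +OHT replicate 1, 557 when Parental +OHT replicate 1 was left out and 590 when its replicate 2 was. These comparisons share the RING1B WT +OHT libraries.

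Among tested genes the RNA change followed the CBX7 score. In Parental cells 76.6% of tested genes rose in the highest of 5 classes by promoter peak score, 65.3% in the second, 49.5% in the third, 39.8% in the fourth and 28.3% in the lowest. The medians were 3.31, 2.21, 1.63, 1.25 and 0.90 on the log2 scale. In the same order 612 of 1030, 701 of 1029, 717 of 1030, 703 of 1029 and 709 of 1029 genes were tested. A gene low without OHT could pass the filter on low counts because it was high with OHT. The part of the filter in the shares by class was not tested. At genes without a CBX7 promoter peak 985 of 14712 rose (6.70%) with a median of −0.12. RING1B I53S gave 74.3%, 58.8%, 43.7%, 35.3% and 24.4% over the same classes, and RING1B WT 7.19%, 4.99%, 5.997%, 3.13% and 2.12%. Under domains of at least 10 kb 289 genes had a promoter, 145 were tested, and 123 of these rose in Parental cells, 116 in RING1B I53S cells and 14 in RING1B WT cells. The RNA level without OHT went the other way. The median gene of the highest class was at 0.0813 CPM in Parental −OHT, and that of the lowest class at 1.39 CPM.

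**Figure D5:**
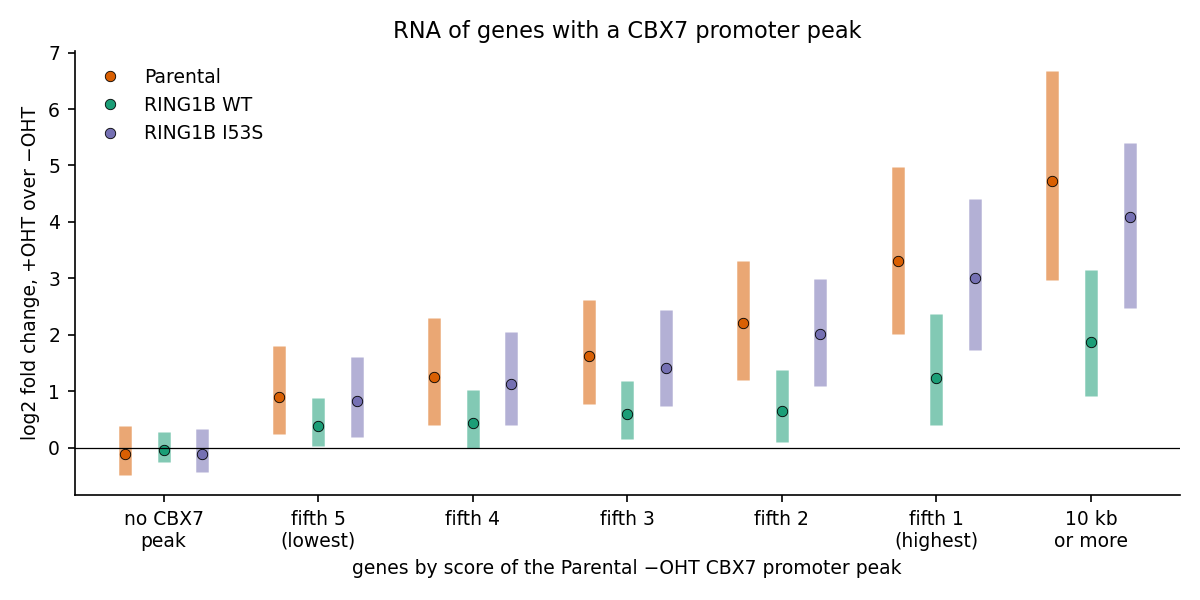
Log2 fold change of RNA with OHT over vehicle (y axis) for tested genes without a CBX7 promoter peak, in each of 5 classes of the Parental −OHT promoter peak score, and under peaks of 10 kb or more, in all 3 lines. Points are medians over genes and bars the quartiles. In Parental cells the medians run from −0.12 without a peak to 3.31 in the highest class.

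Genes were also split by whether RING1B WT +OHT kept their promoter peak, without a test of the difference. Of 2707 genes with a promoter peak in both Parental −OHT and RING1B WT +OHT 1790 were tested, and 1170 of these rose in Parental cells (65.4%). Of 2440 whose peak was not kept 1652 were tested, and 593 of these rose (35.9%). In the RING1B WT line 5.75% of the tested genes with a kept peak and 3.39% of those without one rose. Over all genes tested 15.1% rose in Parental cells and 1.34% in RING1B WT. Kept and not kept peaks also differed in score, with medians of 185 and 23.9. At 54 of the Parental −OHT promoter peak genes a CBX7 peak was still called in Parental +OHT. Of these 36 were tested, 27 rose and 0 fell. A gene low without OHT could pass the filter on low counts because it was high with OHT. The part of the filter in these shares was not tested. Of the 41 Parental −OHT peaks at the loci left, 35 were in the highest of the 5 score classes, where 76.6% of tested genes rose.

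By adjusted p the leading CBX7 genes that rose in Parental cells were Gata3, Esx1, Ccnd2, Serpine2 and Crabp1. Gata3, a trophoblast and T-cell zinc-finger factor under a peak of 20015 bp, was at 0.488 and 0.494 CPM in Parental −OHT and at 52.8 and 51.6 with OHT. In RING1B WT it went from 1.60 and 1.205 to 4.92 and 7.58, and in RING1B I53S from 0.925 and 0.670 to 35.5 and 36.7. The groups did not overlap in any line, and the log2 fold change was 6.70 (SE 0.36, edgeR adjusted p = 7.02e-10) in Parental, 2.13 in RING1B WT and 5.46 in RING1B I53S. Esx1, a placental homeobox gene of the X chromosome, was at 9.60 and 6.54 CPM in Parental −OHT and at 226 and 214 with OHT. In RING1B WT +OHT it was at 16.5 and 18.4, and in RING1B I53S +OHT at 156 and 175, which differed by 3.25 (SE 0.25, edgeR adjusted p = 1.80e-07). Ccnd2, which encodes cyclin D2, went from 2.44 and 4.32 CPM to 194 and 166 in Parental cells, but to 13.4 and 23.6 in RING1B WT. Serpine2, a secreted protease inhibitor, rose by 2.704 (SE 0.19) in Parental and by 1.83 (SE 0.18) in RING1B I53S, and its RING1B WT change of 1.39 stayed under the fold threshold. Crabp1, a retinoic acid binding protein, rose by 2.96 (SE 0.21) and 2.46 (SE 0.20) in the same lines, and its RING1B WT change was 1.24.

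The CBX7 genes that fell were few, and those named had weak peaks. Lefty1, a secreted Nodal antagonist with a peak score of 10.7, was at 307 and 253 CPM in Parental −OHT and at 16.9 and 22.5 with OHT. It fell by 3.83 (SE 0.27) in Parental and by 3.47 (SE 0.26) in RING1B I53S, and its RING1B WT change of −1.32 stayed under the fold threshold. Etv5, Sall1 and Dnajc6 also fell, with peak scores of 29.7, 19.5 and 16.1 and changes of −2.28, −2.49 and −1.97 in Parental cells. None of these 4 genes had a CBX7 peak in RING1B WT +OHT. Prdm14, a germline and pluripotency regulator, was at 11.4 and 14.6 CPM in RING1B I53S +OHT against 44.0 and 38.4 in RING1B WT +OHT, a log2 difference of −1.66. Ly6h was higher in the same comparison, at 22.6 and 28.3 CPM against 2.51 and 3.85.

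Among the genes with the highest CBX7 scores Neurod2 and Nr2e1 were too low to test. Fezf1 had 2 reads in all in Parental −OHT (0.163 and 0 CPM) and rose to 3.66 and 5.83 CPM with OHT. In RING1B WT +OHT it was at 0.100 and 1.12 and in RING1B I53S +OHT at 4.70 and 5.07. Otx1 went from 0.732 and 0.617 to 25.8 and 27.6 CPM in Parental cells. It was at 5.42 and 8.45 in RING1B WT +OHT and at 25.3 and 27.8 in RING1B I53S +OHT, which differed by 1.95 (SE 0.37). Sox9 went from 0.325 and 0.123 to 19.4 and 22.3 CPM in Parental cells, and RING1B WT +OHT was at 0.402 and 1.24. Plau, one of the GA-run sites, rose as well, from 1.63 and 1.48 to 23.3 and 24.4 CPM in Parental cells.

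By list, 29 of 39 Hox genes were tested. Of these 26 rose in Parental cells and 25 in RING1B I53S, against 5 in RING1B WT. A gene low without OHT could pass the filter on low counts because it was high with OHT. The part of the filter in the shares and medians of the lists was not tested. Over all genes tested 15.1%, 12.8% and 1.34% rose in the Parental, RING1B I53S and RING1B WT lines, and 1.83%, 1.04% and 0.0386% fell. Of 39 neural and ectodermal factors 34 were tested, and 26, 23 and 2 rose in the Parental, RING1B I53S and RING1B WT lines. Of 38 mesodermal and endodermal factors 35 were tested, and 29, 26 and 4 rose in the same order. Of 37 ligands 33 were tested. Of these 24 rose and 2 fell in Parental cells, 24 rose in RING1B I53S and 2 in RING1B WT. The medians of the Hox list were 4.93 in Parental, 4.43 in RING1B I53S and 2.90 in RING1B WT. Of 22 germline genes, 20 of which had no CBX7 promoter peak, 16 rose and 1 fell in Parental cells. In RING1B I53S 14 of them rose and 1 fell, and in RING1B WT 8 rose and 0 fell. Of 16 pluripotency factors 7 fell and 1 rose in Parental cells, 5 fell in RING1B I53S and 0 changed in RING1B WT.

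Cbx8, which had a strong CBX7 peak, rose in Parental cells. It was at 1.46 and 0.864 CPM in Parental −OHT and at 26.1 and 31.0 with OHT (log2 4.55, SE 0.45). In RING1B WT +OHT it was at 3.62 and 9.20 CPM, and the change in that line did not pass the test. Pcgf5 rose by 1.93 and Phf19 by 1.75 in Parental cells. Cbx7 was at 221 and 196 CPM in Parental −OHT, 108 and 114 in Parental +OHT, 132 and 117 in RING1B I53S +OHT and 184 and 142 in RING1B WT +OHT. The Parental change of −0.91 (edgeR adjusted p = 0.00064) and the RING1B I53S change of −0.78 (0.00303) stayed under the fold threshold. The part of Cbx7 RNA in the loss of CBX7 peaks was not tested.

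Markers of other cell types moved with the RNA. The 7 ESC markers summed to 2725 to 4056 CPM in the 3 lines without OHT. They summed to 1106 to 1163 in Parental +OHT, 1294 to 1311 in RING1B I53S +OHT and 2592 to 2617 in RING1B WT +OHT, and none was at 0 in any group. The 6 primitive endoderm markers, 5 of which are CBX7 targets, summed to 3.09 to 4.70 CPM without OHT and to 43.6 to 45.9, 36.4 to 38.1 and 8.94 to 12.8 in the same 3 groups, and Gata6 and Foxa2 were at 0 in Parental −OHT. The 6 trophoblast markers, 4 of them targets, summed to 158 to 209 without OHT and to 363 to 369, 277 to 311 and 207 to 232 with it, and Elf5 was at 0 in RING1B WT −OHT and RING1B I53S −OHT. The 4 primed epiblast markers, all targets, summed to 48.7 to 80.2 without OHT. They summed to 114 to 136 in Parental +OHT, 94.0 to 101 in RING1B I53S +OHT and 46.8 to 49.8 in RING1B WT +OHT. In the Parental and RING1B WT lines Dnmt3b alone made up most of this sum. With OHT 1 of the 4 was called higher in Parental cells, 2 in RING1B I53S and 0 in RING1B WT. The 6 fibroblast markers summed to 10.1 to 15.4 without OHT and at most 49.8 with it, with Col3a1 and Dcn at 0 in Parental +OHT, Dcn in RING1B I53S +OHT, and Col3a1, Dcn and Postn in RING1B WT +OHT. The part of a change in cell state in the RNA of CBX7 genes was not tested.

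RNA of Eed fl/fl ESCs gave few calls among the CBX7 genes, and their number depended on the libraries and the fit. In Eed fl/fl ESCs Eed was at 254 and 171 CPM without and at 66.5 and 43.1 CPM with OHT. Of 3789 CBX7 genes tested 1 rose and 0 fell (backgrounds 0.00795% and 0%), and the median was 0.26, against 0.08 over all genes tested. At an unadjusted p under 0.05 edgeR gave 272 of them, against 1372 of all 25170 genes tested. DESeq2 called 8 CBX7 genes higher and 3 lower, against 19 and 13 over all genes. Same-numbered Eed fl/fl replicates deviated together (r = 0.459), which the main fit does not model. A replicate block in edgeR gave 35 CBX7 genes higher and 6 lower, against 140 and 21 over all genes. With the block 876 CBX7 genes had an unadjusted p under 0.05, against 5824 of all genes. Without Eed fl/fl −OHT replicate 2 edgeR called 114 CBX7 genes higher and 5 lower. No CBX7 library of Eed fl/fl cells was analysed here.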

How the data were processed

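ChIP-seq peaks and RNA-seq counts of mouse ESCs were used. Per the labels and methods, the authors aligned ChIP-seq reads to mm10 with Bowtie 1.2.2, kept unique reads, removed duplicates and called peaks in each library with MACS2 2.1.1 against an input of E14 ESCs. Column 5 of the deposited lists is the −log10 p. RNA-seq (SMART-seq2) was aligned by the authors with STAR 2.7 and summarised with featureCounts without strand as deposited counts per gene name. Without strand, overlapping and antisense genes cannot be told apart.

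Peaks were intersected in Python 3.11.15 at 1 bp, and promoters were 2.5 kb to either side of a start site in the GRCm38 annotation. Shares have 95% Wilson intervals. Counts were tested with edgeR 4.0.16 (R 4.3.3) by quasi-likelihood with TMM and filterByExpr, in 1 fit of the 12 libraries of the RING1B series and 1 of the 4 Eed fl/fl libraries, with totals of 6957248 to 12743460 counts. DESeq2 1.42.0, RLE factors, no filter, a replicate block, other windows, scores and overlaps, and leaving out each library were alternatives. The fits were tested on simulated counts with known changes. Named genes were those with the 10 highest-scoring (5 in the other libraries) and 5 longest promoter peaks, the 5 CBX7 genes of lowest adjusted p in each direction for OHT in Parental and the 3 for RING1B I53S against RING1B WT, the highest-scoring members of each gene list, PRC1 subunits and Prdm12. Genes with a peak left, Ring1, Eed, Dnmt3b and list members without a kept peak were named after their values were seen. The CBX7 libraries and the lists were chosen with earlier results of these data known. GA runs were searched, and input peaks and chromosome 11 left out, after the data had been seen. A RYBP sample whose label does not give its group was not used. Some genes that the naming rule selects are not reported here.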

Additional observations from a re-analysis of the deposited data

Results flagged for a closer look

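Among the named genes, 3 with a CBX7 promoter peak had both libraries of 1 line move one way with OHT and both of another line the opposite way. The other genes among the 5147 with a CBX7 promoter peak were not searched. The differences were not tested, and each is the first line's log2 fold change minus the second's. For Coil, whose promoter peak lies on an input peak, Parental minus RING1B WT was −0.52. For Tbx3, a T-box factor of naive ESCs, Parental minus RING1B WT was −1.0 and RING1B WT minus RING1B I53S was 0.53. For Dnmt3b, a de novo DNA methyltransferase, Parental minus RING1B WT was 1.73 and RING1B WT minus RING1B I53S was −1.64. Dnmt3b was at 51.7 and 43.3 CPM in Parental −OHT and at 108 and 91.2 with OHT, while RING1B WT went from 62.8 and 43.4 to 31.5 and 35.8.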

How the results depend on the processing

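Of 188 values under an alternative, 136 stayed within the margin set for them and 52 moved. At a score of at least 20, 10 Parental +OHT and 4 RING1B I53S +OHT peaks and 11 and 7 promoter genes remained. The share of Parental −OHT peaks overlapped in Parental +OHT, RING1B WT +OHT and RING1B I53S +OHT was then 0.101%, 40.8% and 0%. It was 0.0973%, 30.6% and 0.0389% when 50% of the peak had to be covered, and 37.3%, 83.5% and 18.75% with equal numbers of highest-scoring peaks, and 0.540% in Parental +OHT without chromosome 11. The share of CBX7 peaks on H3K27me3 with 50% covered was 89.0% in Parental −OHT and 95.2% in RING1B WT +OHT. At a score of at least 20 it was 75.2%, 88.3%, 10.0% and 0% in Parental −OHT, RING1B WT +OHT, Parental +OHT and RING1B I53S +OHT, and without input peaks 77.6% in Parental +OHT and 72.0% in RING1B I53S +OHT. Without a fold threshold 89 of the 3442 CBX7 genes tested were lower in Parental, 10 in RING1B WT and 63 in RING1B I53S with OHT. In RING1B I53S against RING1B WT 37 were lower, and in Parental against RING1B WT 54. Over all 18154 genes tested the counts in the same order were 2250, 56, 1519, 650 and 1046. Without the filter on low counts RING1B WT had 287 higher and 4 lower, against 466 and 17 over all genes. DESeq2 gave 8 higher and 3 lower for Eed fl/fl, against 19 and 13 over all genes. The cause was not tested where a value moved.

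Leaving out 1 library gave 1445 to 1598 higher and 20 to 28 lower in Parental, 11 to 153 and 0 to 2 in RING1B WT, 1137 to 1559 and 13 to 20 in RING1B I53S. It gave 252 to 707 and 7 to 15 in RING1B I53S against RING1B WT, where the 15 came without RING1B I53S +OHT replicate 1. It gave 404 to 712 and 9 to 16 in Parental against RING1B WT, and 3 to 114 and 0 to 5 in Eed fl/fl (15 higher without +OHT replicate 2, 6 without −OHT replicate 1). A lone library left in a group was assumed to vary like the others.

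Deviations of same-numbered replicates correlated by 0.134 to 0.301 in all 6 pairs of groups with the same treatment, and by −0.0033 to 0.198 in the 9 pairs across treatments, 3 of them over 0.1. No source says that a number marks a shared batch, and since not every pair of groups was over 0.1 the fit of these lines carries no block. The Eed fl/fl fit was also run without a block, although its only pair of groups was over 0.1. With the replicate block Eed fl/fl gave 35 higher and 6 lower (1 pair, r = 0.459), and the block left the other counts within 1.5 times.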

Other observations

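Beyond the named loci, 11 RING1B WT +OHT peaks lay off the Parental −OHT list. The highest scored 35.8 at chr14:19417822-19418606 and 24.1 at chr17:39847366-39847919, and 3 lay within chr9:3006816-3027167. The chromosome 16 site with the GA run was among them, with a score of 13.2. Parental −OHT peaks with a GA run anywhere in them numbered 527. Of these 22 (4.17%) were also Parental +OHT peaks, against 19 of 4613 without a run (0.412%). The run need not lie in the peak that was left. Only 7 Parental +OHT peaks on a Parental −OHT peak held a run themselves. Peaks with a run were longer and scored higher, with a median score of 208 against 49.6. Within the 1028 highest-scoring peaks the shares were 18 of 252 (7.14%) and 17 of 776 (2.19%).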
